A study of Mus musculus with 20 samples.

Results

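The tumours compared here are the haemoglobin-rich and haemoglobin-poor members of 4 treatment groups, chosen by the transcript level of Hbb-bs, a beta chain gene of adult mouse haemoglobin. In each group of 5 tumours the 2 libraries highest in Hbb-bs CPM (its count divided by the library total and multiplied by 1e+06) were called rich and the 2 lowest poor, and the middle one entered no comparison. This left 16 of 20 libraries, 8 rich and 8 poor, with each treatment equally represented in both classes. The ranking used measured values of Hbb-bs, so that gene is described and not tested.

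The libraries came from B16F10 melanomas, a transplantable mouse tumour line, grown in immunocompetent, wild-type C57BL/6 mice. The mice received intraperitoneal injections of IgG control, propafenone (a sodium channel blocker used against arrhythmia), anti-PD-1 (a checkpoint antibody that blocks a brake on T cells) or propafenone with anti-PD-1, here called the combination. Injections were given after tumours had reached about 100 mm3, and tumours were taken on day 16. Whole tumours of 1 implanted line were sequenced, so each library mixes melanoma cells with host cells. The labels number the samples 1 to 5 within each group and do not say that each came from a separate mouse. The p-values therefore measure the spread between these samples. In such bulk samples, more cells of a type and more RNA per cell cannot be told apart.

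Circulating red blood cells have no nucleus, but the youngest of them, reticulocytes, still hold RNA, most of it for haemoglobin. Haemoglobin binds oxygen as a tetramer of alpha and beta chains around haem, and Alas2 encodes the enzyme that begins haem synthesis in erythroid cells. Blood enters a tumour sample with its vessels, by bleeding into the tissue or at excision. The data hold no measure of which applied.

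The promoters of Hbb-bs, Hbb-bt, Hba-a1 and Alas2 are shown because these genes varied together across the tumours. The runs below are the 150 bases before the annotated start in RefSeq (GRCm38.p6), 5′ to 3′ on the gene's strand. Capitals mark the CACCC box, the CCAAT box, the core motif GATAA of GATA factors and the TATA-like motif ATATAA. Each was searched on both strands, so a motif on the opposite strand appears as its reverse complement, as GGGTG does for the first.
Hbb-bs, chr7:103827929-103828078, minus strand: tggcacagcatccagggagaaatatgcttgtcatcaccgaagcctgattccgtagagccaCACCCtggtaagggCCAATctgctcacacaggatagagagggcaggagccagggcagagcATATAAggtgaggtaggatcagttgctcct
Hbb-bt, chr7:103813924-103814073, minus strand: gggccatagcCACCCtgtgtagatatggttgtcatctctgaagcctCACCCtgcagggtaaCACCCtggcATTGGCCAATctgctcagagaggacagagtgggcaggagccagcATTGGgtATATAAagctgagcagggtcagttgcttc
Hba-a1, chr11:32283522-32283671, plus strand: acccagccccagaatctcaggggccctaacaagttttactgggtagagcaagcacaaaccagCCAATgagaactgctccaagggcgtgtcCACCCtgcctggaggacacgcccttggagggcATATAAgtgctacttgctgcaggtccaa
Alas2, chrX:150547267-150547416, plus strand: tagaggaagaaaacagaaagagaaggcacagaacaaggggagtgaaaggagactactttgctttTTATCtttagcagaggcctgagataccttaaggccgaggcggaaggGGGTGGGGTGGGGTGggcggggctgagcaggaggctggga

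The Hbb-bs window held 1 CACCC, 1 CCAAT and 1 ATATAA, the last beginning 30 bases before the start. The Hbb-bt window held 3 CACCC and, counting both strands, 3 CCAAT, of which 2 lie side by side and no base is shared between motifs. The Alas2 window held 3 CACCC on the opposite strand and 1 GATAA, and neither CCAAT nor ATATAA. Among 32851 mouse promoter windows of the same length, CACCC occurred in 37.4%, CCAAT in 24.5%, GATAA in 13.3% and ATATAA in 5.35%. Those matches are letters in a window and were not tested for binding.

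Hbb-bs varied widely inside groups that had received the same treatment. In the IgG group the poor libraries held 86.0 and 156.8 CPM, the middle one 262.7, and the rich libraries 1562.8 and 2944.3. In the propafenone group the poor libraries held 247.7 and 264.1, the middle one 386.2, and the rich ones 1007.0 and 1850.9. The lowest rich library exceeded the highest poor one 9.97-fold in the IgG group and 3.81-fold in the propafenone group.

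In the anti-PD-1 group the poor libraries held 108.8 and 139.1 CPM, the middle one 146.1, and the rich libraries 256.9 and 1419.3. Here the class rests on 1 tumour, anti-PD-1 2, far above the other 4. In the combination group the poor libraries held 59.6 and 104.8 CPM, the middle one 117.8, and the rich ones 143.4 and 154.5. The combination group had no strongly haemoglobin-rich tumour, and its rich libraries were only 1.81-fold above its poor ones by the means, against 18.6-fold in the IgG group. Just inside and outside the division, the lowest rich library exceeded the middle one 1.22-fold in the combination, and the middle one exceeded the highest poor library 1.05-fold in the anti-PD-1 group. Because the ranking was made within groups, 3 of the 8 rich libraries lay below the highest poor library of another group. The 5 libraries above 1000 CPM came from the IgG, propafenone and anti-PD-1 groups.

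**Figure D1:**
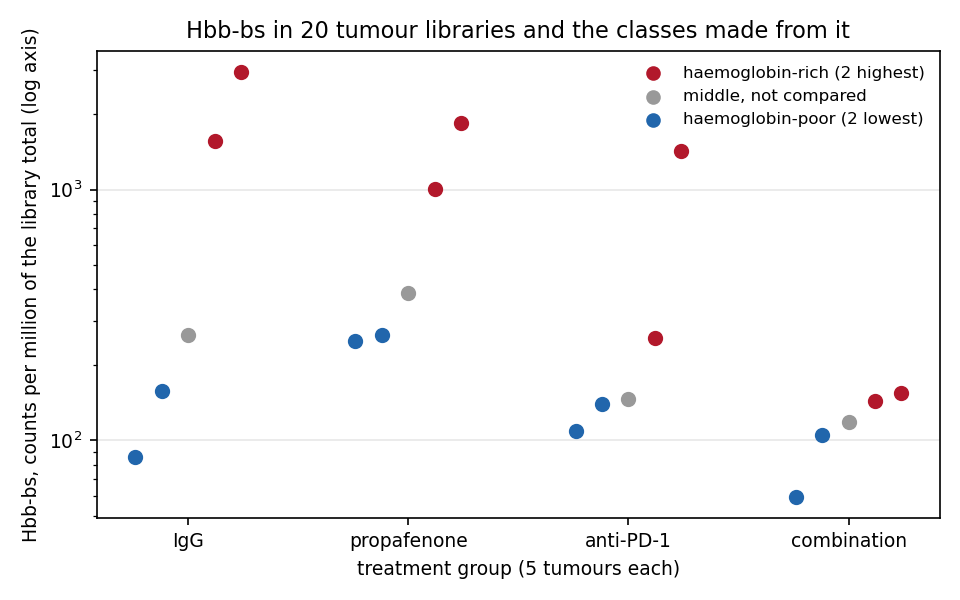
Hbb-bs CPM (log axis) of the 20 tumours by treatment group, coloured by class. The 5 libraries above 1000 CPM stand apart from the rest, and the 5 combination tumours span only 59.6 to 154.5 CPM.

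Hbb-bt, the neighbouring adult beta chain gene, and Hba-a1 and Hba-a2, the alpha chain genes, followed Hbb-bs and are described here by their values, since they share red blood cells with the ranking gene. Where they appear in counts of calls below, they are counted only and nothing is read from them. From here, CPM of genes other than Hbb-bs are scaled by TMM factors, which balance library composition. Hbb-bt ranged from 71.2 to 2101 CPM in rich and from 28.3 to 155 CPM in poor libraries, and Hba-a1 from 108 to 3185 and from 48.3 to 215. Over 20 libraries with group means removed, the Pearson correlation of log2 CPM with Hbb-bs was 0.999 for Hbb-bt and 0.997 for both Hba-a1 and Hba-a2. The longest open reading frames of Hbb-bs and Hbb-bt differ at 1 of 444 bases and those of Hba-a1 and Hba-a2 at 1 of 429, so reads may have been divided between copies and the split within each pair is uncertain. The 4 genes together took 0.0175% to 1.06% of all counts. Of the other haemoglobin genes, Hbb-y, Hbb-bh1, Hbb-bh2, Hba-x and Hbq1a did not pass the filter on low counts. Hbq1b, the sixth, was below 2.1 CPM in every library.

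Across all genes but Hbb-bs, the comparison of 8 rich with 8 poor libraries called none. With edgeR's quasi-likelihood test, treatment group as a block and Benjamini-Hochberg adjustment, 0 of 15918 genes tested passed an adjusted p of 0.05 (0% called). At an unadjusted p under 0.05 there were 1340 genes, 8.42% of those tested, where 795.9 would be at a uniform distribution of p. DESeq2's Wald test on the same libraries called 30 genes, 23 higher and 7 lower (0.2% of 14992). Of the genes named below, these included Slc4a1, Alas2, Tent5c, Cd24a, Car2, Apol11b, Calr, Ddost and Col6a1, all higher. Cfap46, Spry1, Srek1ip1 and Neil3 were among the lower. limma, on voom weights or on the deposited TPM, called 0. The median log2 difference over all genes tested was 0.0028, and 50.8% of genes were higher in rich libraries.

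Genes of red blood cells were among those with the smallest p-values. Slc4a1, the anion exchanger of the red cell membrane, was 2.98 ± 0.47 (SE) higher on the log2 scale (edgeR adjusted p = 0.212, n = 8 and 8). Its values were 7.36 and 11.9 CPM in the rich against 0.920 and 1.26 in the poor IgG tumours, and 2.07 and 17.7 against 1.46 and 1.87 in the propafenone group. They were 0.781 and 3.13 against 0.129 and 0.224 CPM in the anti-PD-1 group, and 0.316 and 0.424 against 0 and 0.111 in the combination. Both rich tumours were thus above both poor ones in each treatment group, although the classes overlap across groups. Slc4a1 passed in the fit without propafenone 4 (edgeR adjusted p = 0.0064), the only gene that did, and DESeq2 called it on all 16 libraries (adjusted p = 1.1e-08).

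Alas2 was 3.10 ± 0.56 (SE) higher in rich tumours (log2, edgeR adjusted p = 0.419). The rich IgG tumours held 113 and 213 CPM and the poor ones 3.86 and 8.46. In the propafenone group the values were 69.5 and 134 against 14.1 and 14.7, and in the anti-PD-1 group 15.2 and 95.3 against 4.34 and 5.05. In the combination they were 4.85 and 7.21 against 1.65 and 4.0. The separation held in each group and, as for Hbb-bs, was widest in IgG and narrowest in the combination, at 4.74 in IgG, 2.74 in propafenone, 3.0 in anti-PD-1 and 1.17 in the combination (log2). Relative to Hbb-bs, Alas2 had a median of 64.7 counts per 1000 Hbb-bs counts in rich and 42.5 in poor libraries, with overlapping ranges of 34.3 to 72.1 and 28.5 to 57.2.

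Tent5c, which encodes a poly(A) polymerase, was 1.82 ± 0.36 (SE) higher on the log2 scale (edgeR adjusted p = 0.419). It held between 7.14 and 17.4 CPM in the 5 libraries with over 1000 CPM of Hbb-bs, and between 1.52 and 4.09 in the other 15. Epb41, a protein of the red cell skeleton that other cells also make, was 0.30 ± 0.08 higher (adjusted p = 0.519), with both rich libraries above both poor ones in 4 of 4 groups.

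Of the gene list for the red cell membrane and skeleton, 13 of 15 tested members were higher (median log2 difference 0.317, 0 called by edgeR), and 12 of 15 when libraries were scaled by their totals. In the haem synthesis list, Alas2 included, 9 of 11 members were higher, with a median of 0.021, and 5 of 11 with a median of -0.035 under library totals. Without Alas2, 8 of 10 were higher, with a median of 0.019 and a range of -0.086 to 0.180. Alad and Fech, enzymes of the same pathway that most cells make, differed by 0.16 ± 0.06 and 0.18 ± 0.06 (adjusted p = 0.525 and 0.519). Genes of red cell precursors were scarce. Gata1 and Gfi1b, transcription factors of those precursors, were at 0 in 13 of 20 libraries each and at most 0.203 and 0.0815 CPM, and neither passed the filter. The list of erythroid factors and late erythroid genes had 9 of 14 members higher (median 0.110).

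The 5 libraries above 1000 CPM were also compared with the 6 poor libraries of their groups, an alternative chosen after the data were seen. edgeR called 9 genes higher (0.0572% of 15722) and 0 lower: the 3 other adult haemoglobin genes, Alas2, Tent5c, Car2, Cd24a, Aldh1a1 and Fam220a. Aldh1a1, a retinaldehyde dehydrogenase, held 1.14 to 2.80 CPM in those 5 libraries and at most 1.02 in the other 15. Fam220a held 35.5 to 47.6 CPM there and 24.8 to 28.6 in the 6 poor libraries.

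**Figure D2:**
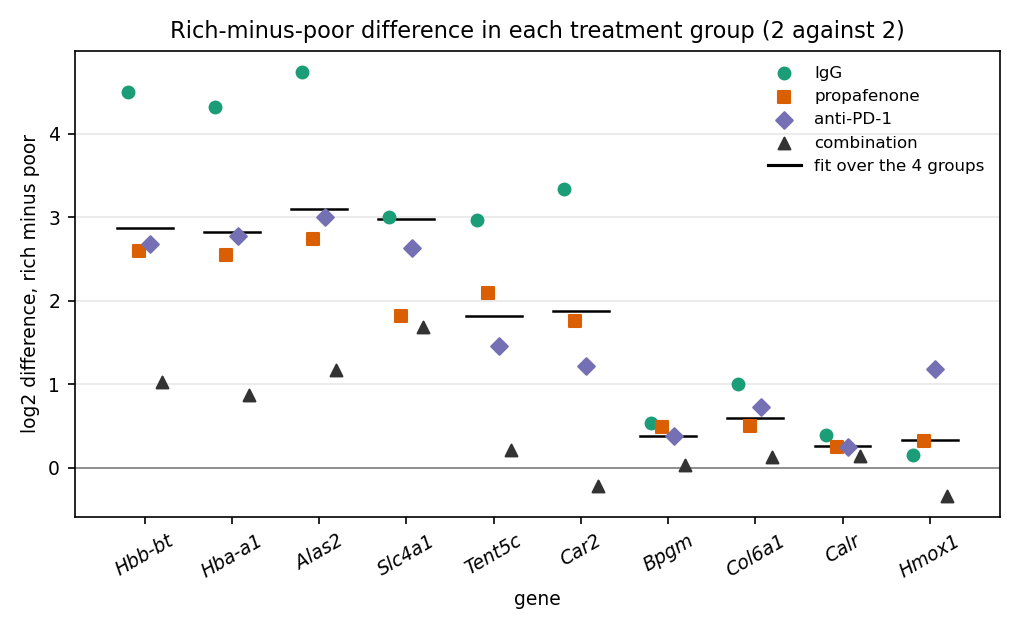
Rich-minus-poor log2 difference of 10 genes in each treatment group (2 against 2 libraries, points) and in the fit over the 4 groups (lines). For the red cell genes the IgG group gave the highest point, and the combination group the lowest.

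The deposited data allow a graded version of the question, with log2 Hbb-bs CPM as a continuous term beside treatment group over all 20 libraries. edgeR's quasi-likelihood test called 206 of 15874 genes (1.3%) on this slope, of which 125 were higher with Hbb-bs (0.787%) and 81 lower (0.51%). With library totals in place of TMM it called 378, 55 higher and 323 lower, and 134 of the 206 were among them. The slopes of most called genes were shallow, with a median of 0.096 log2 units per doubling of Hbb-bs among those that rose and -0.127 among those that fell, and 13 genes had a slope above 0.5. Of the genes on the red cell lists, haemoglobin genes left out, 7 of 40 tested were called (17.5%, against 1.3% of all genes). The lists were chosen with earlier results of these data known.

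The number of calls depended on single libraries. It fell to 12 without anti-PD-1 2 and to 15 without IgG 5, and rose to 1470 without propafenone 5, to 625 without combination 3 and 478 without anti-PD-1 3. Without each of the others it lay between 32 and 166, and only without propafenone 3 (166) or combination 5 (155) was it within 1.5 times of 206. Without the 5 libraries above 1000 CPM, 4 genes were called, all of them among the 206: Hbb-bt, Hba-a1, Hba-a2 and Alas2 (slope 1.33 ± 0.11). With the skeletal muscle list score as a covariate 16 were called in place of 206.

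**Figure D3:**
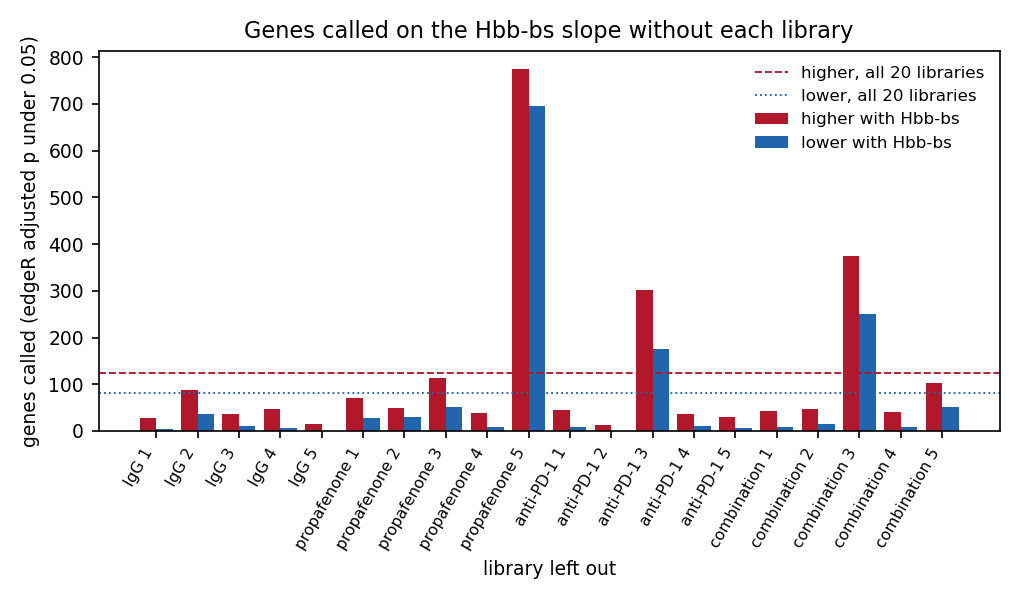
Genes called on the Hbb-bs slope (edgeR adjusted p under 0.05), higher and lower, when each library was left out. With all 20 libraries 125 were higher and 81 lower (dashed and dotted lines). Higher and lower together, the calls range from 12 without anti-PD-1 2 to 1470 without propafenone 5.

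In each of the 20 fits without 1 library, 11 genes were called: Hbb-bt, Hba-a1, Hba-a2, Alas2, Slc4a1, Bpgm, Car2, Tent5c, Cd24a, Apol11b and Col6a1. Alas2 rose by 1.17 ± 0.03 (SE) log2 units per doubling of Hbb-bs (edgeR adjusted p = 3.8e-17) and Slc4a1 by 0.90 ± 0.11 (adjusted p = 0.00039). Car2, the carbonic anhydrase that speeds carbon dioxide transport in red cells, rose by 0.79 ± 0.07 (adjusted p = 1.5e-06), from between 0.284 and 1.97 CPM in the 15 libraries below 1000 CPM of Hbb-bs to between 2.17 and 10.1 in the 5 above. Its rich and poor combination tumours did not separate, and its slope without those 5 libraries was 0.27 ± 0.25 (not called). Bpgm makes 2,3-bisphosphoglycerate, which lowers the oxygen affinity of haemoglobin. It rose by 0.17 ± 0.02 (adjusted p = 0.00014), from between 48.7 and 71.0 CPM in the 15 libraries to between 71.6 and 117 in the 5. Without the 5 its slope was 0.05 ± 0.05 (not called).

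Tent5c rose by 0.71 ± 0.05 log2 units per doubling (edgeR adjusted p = 3.4e-08) and Cd24a, a small surface glycoprotein found on red cells and on several other cell types, by 0.77 ± 0.08 (adjusted p = 1.9e-05). Apol11b, an apolipoprotein L family gene, rose by 0.98 ± 0.15 (adjusted p = 0.0048) but stayed at or below 2.98 CPM. Without the 5 libraries above 1000 CPM of Hbb-bs none of the 3 was called, and the slopes were 0.45 ± 0.17 for Tent5c, 0.21 ± 0.25 for Cd24a and 2.05 ± 0.56 for Apol11b. That of Slc4a1 was 1.24 ± 0.43 (not called).

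By correlation with Hbb-bs over the 20 libraries after group means were removed, the 10 most similar of 12470 genes averaging at least 1 CPM were, in order, Hbb-bt, Hba-a1, Hba-a2, Alas2, Tent5c (0.963), Car2 (0.935), Cd24a (0.916), Bpgm (0.906), Slc4a1 (0.889) and Gng10 (0.885), a G protein gamma subunit. These correlations share the same 20 libraries, the 5 high ones included. The lowest correlations were those of Dido1 (-0.854) and Zfp644 (-0.840).

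**Figure D4:**
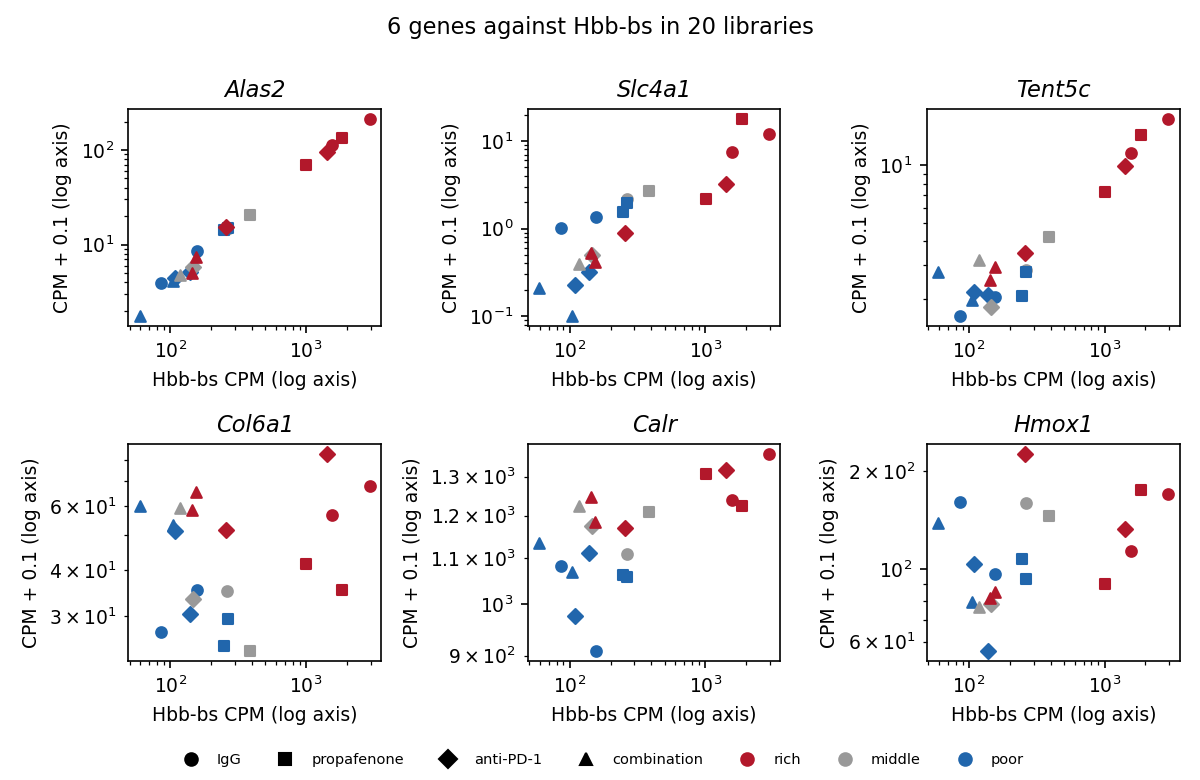
CPM (plus 0.1, log axis) of 6 genes against Hbb-bs CPM (log axis) in 20 libraries, with treatment group as shape and class as colour. Alas2 follows Hbb-bs over its whole range, Tent5c rises mainly in the 5 libraries above 1000 CPM, and Col6a1, Calr and Hmox1 spread more widely.

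All 18 genes of the fibroblast list were higher in rich tumours (17 of 18 under library totals), with a median log2 difference of 0.458, and 4 were called on the Hbb-bs slope: Col1a1, Col5a1, Col6a1 and Col6a2, which encode chains of fibrillar and beaded-filament collagen (1.3% of all genes were called). Of these 4, only Col6a1 was called in every fit without 1 library. edgeR called 0 of the 18 in the comparison of 8 with 8. Col6a1 was at 56.5 and 68.1 CPM in rich against 26.9 and 35.2 in poor IgG tumours, and at 35.2 and 41.6 against 24.7 and 29.4 in the propafenone group. It was at 51.5 and 83.1 against 30.3 and 51.0 in the anti-PD-1 group, and at 58.3 and 65.3 against 53 and 59.8 in the combination, where the classes overlap. Its slope was 0.25 ± 0.03 log2 units per doubling (edgeR adjusted p = 0.0013). The slope of Col6a2 was 0.26 ± 0.04 (adjusted p = 0.0024) and that of Col1a1 0.32 ± 0.07 (adjusted p = 0.045). Without the 5 libraries above 1000 CPM of Hbb-bs none of the 3 was called, and the slopes were 0.13 ± 0.11 for Col6a1, 0.16 ± 0.12 for Col6a2 and -0.28 ± 0.17 for Col1a1, whose direction turned.

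By treatment group, the fibroblast list median was 0.938 in IgG, 0.433 in propafenone and 0.828 in anti-PD-1 tumours, and -0.280 in the combination. The combination group was also below 0 for the platelet, coagulation and neutrophil lists. The test of whether a rich-minus-poor difference varied with treatment called 0 of 15918 genes (edgeR quasi-likelihood F test, 0% called), with 781 at an unadjusted p under 0.05, and voom called 0.

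Genes of platelets and neutrophils had few counts. The platelet list had 11 of 11 tested members higher with a median of 0.873, Gp1bb, a subunit of the von Willebrand factor receptor, among them at 1.39 ± 0.52 (edgeR adjusted p = 0.523) and at most 0.976 CPM. Gp5, Treml1, Clec1b and Gp6, 4 further platelet genes, did not pass the filter. The neutrophil list had 8 of 8 tested members higher (median 0.293), while its defining members Ly6g and Mpo were at 0 in 18 and 19 of 20 libraries. Summed over the list, neutrophil genes took 3.77 to 14.4 CPM in rich and 1.32 to 29.7 CPM in poor libraries, so the classes overlapped. All 15 coagulation and fibrinolysis genes tested were higher (median 0.270), with 1 at an unadjusted p under 0.05 and 0 called.

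Of 28 endothelial genes tested, 18 were higher with a median of 0.061, and 14 with a median of 0.004 under library totals. Pecam1 and Cdh5, adhesion molecules of endothelial junctions, differed by 0.10 ± 0.13 and -0.01 ± 0.14 on the log2 scale (edgeR adjusted p = 0.863 and 0.991). Vwf, which encodes von Willebrand factor, differed by 0.49 ± 0.17 (adjusted p = 0.519). Vegfa, the main vessel growth signal, ranged from 167 to 554 CPM in rich and 114 to 340 CPM in poor tumours. Its difference was 0.15 ± 0.23 (adjusted p = 0.891).

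Macrophages take up old red cells and recycle haem iron through Hmox1, the haem oxygenase, ferritin and the exporter Slc40a1. The haem and iron recycling list had 15 of 18 tested members higher, with a median of 0.078, and 10 of 18 with a median of 0.026 under library totals. None was called, also on the slope. Hmox1 ranged from 81.8 to 225 CPM in rich and 55.9 to 160 CPM in poor libraries, and differed by 0.33 ± 0.25 (edgeR adjusted p = 0.745). Its rich libraries were above its poor ones in 1 of 4 groups. Fth1, the ferritin heavy chain, differed by 0.11 ± 0.07 (adjusted p = 0.683) and Slc40a1 by 0.08 ± 0.17 (adjusted p = 0.927). Macrophage and monocyte genes were higher in 20 of 22 (median 0.241), with 0 called. Their group medians were 0.048 in IgG, 0.881 in propafenone, 0.267 in anti-PD-1 and -0.159 in the combination. On the Hbb-bs slope their median was 0.029 log2 units per doubling, with 0 called. The list sums overlapped, at 691 to 1212 CPM in rich and 693 to 1339 CPM in poor libraries.

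Ferroptosis, an iron-dependent form of cell death, is named in the title of the study. Of 17 tested genes of ferroptosis and glutathione metabolism, 10 were higher and 7 lower, with a median of 0.008, and 7 were higher under library totals. Gpx4, which reduces lipid peroxides, differed by 0.21 ± 0.07 (edgeR adjusted p = 0.519) and Acsl4, an enzyme that activates polyunsaturated fatty acids for membrane lipids, by -0.26 ± 0.10 (adjusted p = 0.523). Slc7a11, the cystine importer, differed by -0.18 ± 0.29 (adjusted p = 0.892).

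Lists of melanocyte genes and of general cell functions were also measured. Melanocyte lineage genes, whose sum of 21446 to 30991 CPM marked every compared library as melanoma, were higher in 14 of 16 (median 0.105), and in 11 of 16 (median 0.051) under library totals. Hypoxia targets were higher in 22 of 24 (median 0.175), although Bnip3 differed by 0.11 ± 0.13 (edgeR adjusted p = 0.848). The hypoxia list had group medians of 0.023 in IgG, 0.313 in propafenone, 0.418 in anti-PD-1 and -0.093 in the combination. Its sums overlapped, at 3205 to 6498 CPM in rich and 2681 to 5356 CPM in poor libraries. Cytosolic ribosome genes were higher in 28 of 30 (median 0.119) and complex I genes in 34 of 37 (median 0.087), and their medians were 0.066 and 0.035 under library totals. Cell cycle genes were divided, 15 higher and 15 lower (median -0.003). edgeR called 0 members of these lists in the comparison of 8 with 8. On the slope it called Ndufa9 and Ndufb4 of complex I and Rps15 of the ribosome, each at 0.07 log2 units per doubling, and none of these 3 in every fit without 1 library.

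Calr, which encodes the endoplasmic reticulum chaperone calreticulin, was the only gene at which every rich library lay above every poor one, at 1170 to 1362 against 908 to 1135 CPM (0.00628% of genes tested). Its difference was small, 0.26 ± 0.05 on the log2 scale (edgeR adjusted p = 0.419), and its slope was 0.08 ± 0.02 (adjusted p = 0.027). Neil3, a DNA repair glycosylase, was the only gene with every rich library below every poor one, at 6.87 to 8.38 against 8.75 to 11.4 CPM (0.00628%), and differed by -0.31 ± 0.08 (adjusted p = 0.519). Within groups, both rich libraries were above both poor ones in 4 of 4 groups at 34 genes (0.214%) and below them at 21 (0.132%). Those above included the adult haemoglobin genes, Slc4a1, Alas2, Epb41, Apol11b and Calr. Ddost, a subunit of the complex that attaches sugar chains to proteins in the endoplasmic reticulum, was also among them, at 0.16 ± 0.04. Whether more genes separated the classes, across or within groups, than would under shuffled class labels was not tested.

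Among the genes lower in rich tumours, the 5 with the smallest p did not pass the threshold in edgeR. DESeq2's Wald test called Cfap46, Spry1 and Srek1ip1 of these (adjusted p = 0.030, 0.030 and 0.041). Cfap46, a component of motile cilia, was at 3.38 and 3.96 CPM in rich against 5.40 and 10.5 in poor IgG tumours, and at 3.39 and 5.69 against 5.89 and 7.30 in the propafenone group. It was at 3.03 and 3.09 against 4.01 and 4.93 in the anti-PD-1 group and at 2.93 and 3.11 against 4.06 and 4.85 in the combination. Each group thus placed both rich tumours below both poor ones, and the difference was -0.69 ± 0.16 (edgeR adjusted p = 0.519). Spry1, an inhibitor of growth factor signalling, differed by -0.33 ± 0.08 and its slope was called (-0.11 ± 0.02, adjusted p = 0.039). Kif2a, a microtubule motor, Notch2, a receptor of cell-to-cell signalling, and Srek1ip1 differed by -0.29 ± 0.07, -0.31 ± 0.08 and -0.31 ± 0.08 (adjusted p = 0.519 for all 5).

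Markers of tissue around a tumour had medians away from 0. The skeletal muscle list was lower in 19 of 20 genes (median -0.435) and its direction differed between groups, with medians of -1.40 in IgG, 0.665 in propafenone, -2.64 in anti-PD-1 and 1.55 in the combination. The list summed to 21.2 to 711 CPM in rich and 20.4 to 674 CPM in poor libraries. Adipocyte genes were lower in 10 of 11 (median -0.335), and their direction also differed between groups. The medians were -0.241 in IgG, 0.328 in propafenone, -1.42 in anti-PD-1 and 0.879 in the combination. Keratinocyte genes were lower in 9 of 14 (median -0.179), with Krt14 at 0 in 9 of 20 libraries. Their group medians were -0.144 in IgG, -0.433 in propafenone, 1.57 in anti-PD-1 and -1.18 in the combination. The part of these tissues in the other differences was not tested beyond the fit with the muscle score, in which calls on the slope fell from 206 to 16. There Slc4a1, Alas2, Col6a1 and Col6a2 were still called, and Col1a1, Col5a1, Calr and Spry1 were not.

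**Figure D5:**
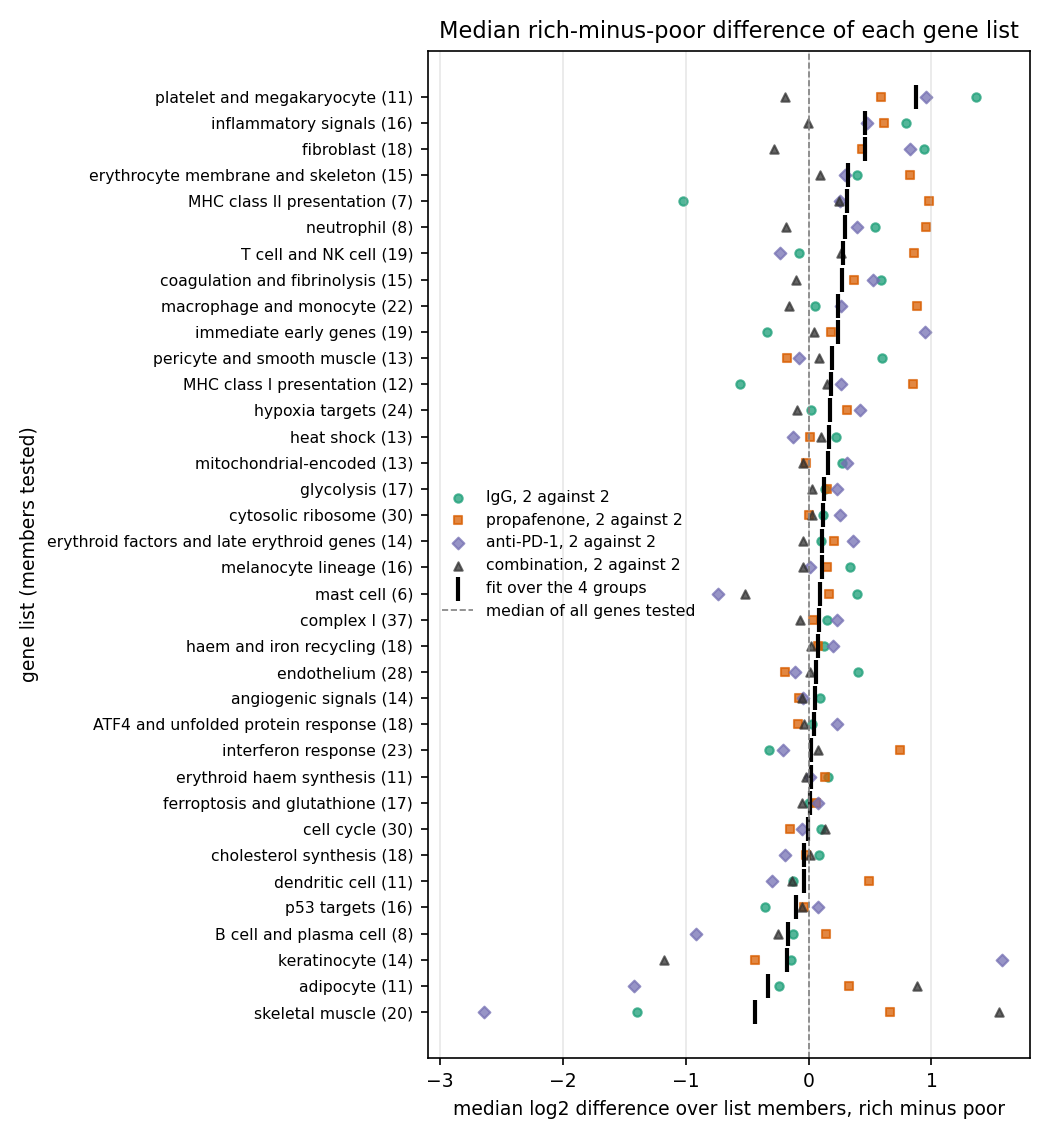
Median rich-minus-poor log2 difference of each gene list with at least 5 members tested, in each treatment group (2 against 2 libraries) and in the fit over the 4 groups. The dashed line is the median of all genes tested (0.0028). The combination group lies below 0 for the fibroblast and platelet lists, and the muscle list takes both signs.

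The libraries held 55985437 to 64514815 counts. Library composition differed between the classes. The TMM factor averaged 0.981 ± 0.037 (SD) in rich and 1.01 ± 0.014 in poor libraries, a difference of -0.0335 (exact two-sided permutation test within groups, p = 0.0015, the smallest the 1296 assignments can give, and 0.0077 adjusted over 5 measures, n = 8 and 8). The 100 most abundant genes took 19.9% ± 1.22 (SD) of counts in rich and 19.0% ± 0.49 in poor libraries (exact permutation p = 0.0108, adjusted 0.027). With the 4 adult haemoglobin genes left out, an alternative chosen after the data were seen, the differences were -0.0275 in the TMM factor and 0.849 percentage points in the share (exact permutation p = 0.0015 and 0.0139). Without anti-PD-1 1 or anti-PD-1 5 both adjusted p-values were above 0.05. Only 1 poor library then remained in the anti-PD-1 group, and the cause of the change was not tested. The mitochondrial share was 4.23% ± 0.73 against 3.88% ± 0.36 (exact permutation p = 0.0972, adjusted 0.162), and total counts and genes detected gave adjusted exact permutation p-values of 0.243 and 0.423. The part of composition in the gene differences was not tested beyond the fits under other scalings.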

How the data were processed

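The authors deposited counts per gene and TPM for 20 libraries, both in whole-tumour RNA made with a SMARTER mRNA-seq kit, per the labels. The counts are whole numbers and were treated here as estimated counts. Per the submitters' processing notes the reads were handled with FastQC, HISAT2 2.2.1 and SAMtools 1.9 on GRCm38 (mm10). The tool that counted reads, the annotation and the strand setting are not given in the sources used here. In the deposited estimated counts, multiples of 4 are more frequent than their neighbours, so a count is not 1 fragment, and a fit on counts divided by 4 was tried.

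Classes follow Hbb-bs CPM within groups, and TPM or the sum of the 4 adult haemoglobin genes gave the same classes in 20 of 20 libraries. Genes passing filterByExpr on the treatment groups were fitted with edgeR 4.0.16 (TMM, robust quasi-likelihood) with group as block, and adjusted over all tested genes. DESeq2 1.42.0, limma 3.58.1 on voom weights and on log2(TPM + 1) or log2(TPM + 0.1), other scalings and filters, and each library left out were alternatives. Of the fits, the edgeR comparison of rich with poor was tried on simulated counts. Residual degrees of freedom were 11. CPM of tested genes are over TMM-scaled library sizes. The tested genes held 99.9% of counts. Of 32285 gene IDs, 32158 were found in GENCODE vM21 (GRCm38).

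The members and gene lists were chosen with earlier results of these data known. Genes are named by a rule, and not every gene it covers is printed. It takes up to 15 of smallest p in each direction past the threshold, or the 5 of smallest p where fewer than 5 passed. It adds a fixed panel of 24 genes, up to 3 of each list in each direction, and the 10 most like Hbb-bs at 1 CPM or more. Others were named after their values were seen: the remaining genes called in every slope fit, Gm26917, Neil3, Ddost, Dido1, Zfp644, Col5a1, Aldh1a1, Fam220a, Rps15, and list members that did not pass the filter, such as Gata1, Gfi1b, Ly6g and Mpo. Replicate numbers are not known to pair the tumours. The mean correlation of deviations over 30 same-number pairs was -0.0058, and 7 of 20 libraries were closest to their own number, which does not settle it. No 2 libraries held identical values. Some results are not reported here.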

Additional observations from a re-analysis of the deposited data

Results flagged for a closer look

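In groups of 5 tumours, 7 of 64 sets held 1 library whose gap to the nearest of the others was wide against the group's range. Chance gives about 1 in 20, but Hbb-bs is the ranking value and the red cell genes follow it, so the number of sets is not read against that share. The tumour anti-PD-1 2 accounted for 6 of the 7. It held 1419.3 CPM of Hbb-bs against 108.8 to 256.9 in the other 4 anti-PD-1 tumours, 1029 CPM of Hbb-bt against 53.8 to 155, and 95.3 CPM of Alas2 against 4.34 to 15.2. Slc4a1 was at 3.13 CPM there against 0.129 to 0.781, and Tent5c at 9.83 against 1.70 to 3.36. Its TMM factor was 0.930 against 0.996 to 1.01. The tumour propafenone 5 held 17.7 CPM of Slc4a1 against 1.46 to 2.62 in the other 4 of its group.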

How the results depend on the processing

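The comparison of classes called 0 genes under every scaling, filter, TPM and voom alternative run. The exceptions were DESeq2 (30), the replicate block (1, Gm26917), the continuous Hbb-bs term (206) and the 5 libraries above 1000 CPM against 6 poor ones (9). Without 1 library it called 0 to 1, the 1 being Slc4a1 without propafenone 4. The replicate numbers are not known to pair the tumours, and no sample was crossed. The test of differences between treatments called 0, and 0 to 1 without 1 library: Shroom4 without anti-PD-1 2, Rasal2 without combination 1 and Nnt without combination 2, named because the counts were 1. The 206 calls on the slope became 378 with library totals, 111 with voom, 16 with the muscle score, 4 without the 5 high libraries and 12 to 1470 without 1 library. The cause of these changes was not tested.

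The difference in the share of the top 100 genes was 0.669 to 1.22 percentage points without 1 library, and that of the TMM factor -0.0418 to -0.0252. Their adjusted exact permutation p was above 0.05 without 6 and 2 of the 16 libraries in turn. Of 49 named genes, 43 kept their direction in all alternatives. Cdh5 was 0.0157 on the slope and -0.0757 to 0.0997 without 1 library, Krt14 -3.30 to 0.415 and Vegfa -0.0525 to 0.257. Fth1 was -0.0091 in both TPM fits, Pecam1 -0.0020 at a pseudocount of 1 and -0.0028 at 0.1, and Slc40a1 -0.0228 and -0.0470, and -0.0162 without the combination group. Many genes of platelets and neutrophils lay near 0 CPM, and the part of sequencing depth in this was not tested.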

Other observations

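Immune genes beyond the blood lists were also measured in the rich and poor tumours. All 16 inflammatory signal genes tested were higher in rich tumours, with a median log2 difference of 0.460. Ccl4, a chemokine for monocytes and T cells, differed by 0.82 ± 0.36 and Cxcl1, a chemokine for neutrophils, by 1.21 ± 0.60 (edgeR adjusted p = 0.555 and 0.604). The list median was 0.795 in IgG and -0.007 in the combination. MHC class II genes were higher in 7 of 7 with a median of 0.310 in the comparison of classes, but lower in 7 of 7 when the 5 libraries above 1000 CPM of Hbb-bs were set against the 6 poor libraries of their groups (median -0.459). Their group medians ran from -1.02 in IgG to 0.980 in propafenone. Interferon response genes had a median of 0.022, with 0.741 in propafenone and -0.327 in IgG. T cell and NK cell genes were higher in 14 of 19 in the comparison of classes (median 0.280). On the Hbb-bs slope 16 of the 19 were lower, with a median of -0.0995 log2 units per doubling. The group medians of T cell and NK cell genes were -0.078 in IgG, 0.861 in propafenone, -0.230 in anti-PD-1 and 0.263 in the combination. B cell and plasma cell genes were lower in 6 of 8 in the comparison of classes (median -0.168). None of these lists held a gene called by edgeR in the comparison of classes or on the slope.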
